A study of Homo sapiens with 5 samples.

Results

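Messenger RNA of ACKR3, CXCR4, CXCL12, MET, OPRK1, CDH2 and DKK1 was followed in 5 RNA sequencing libraries of the human prostate cancer line C4-2B. These are 5 genes known to be repressed by androgen (ACKR3, MET, OPRK1, CDH2 and DKK1) and 2 chemokine partners of ACKR3 (CXCR4 and CXCL12), taken by symbol from a table of 58812 Ensembl gene IDs. Of the 7 genes, 6 had at least 1 count in the 5 libraries. The mutant groups were clone C4K13A (2 libraries) and clone C5K13A (1 library), both carrying the K13A change in HOXB13, which replaces lysine 13 of this prostate-lineage homeobox factor with alanine. They were set against the parental line (2 libraries). Each clone is a single line, and every library came from cells in the same medium, named after C4-2B itself. C4-2B is castration resistant, and the labels name no androgen or antiandrogen treatment in any group. Repression by androgen was therefore not tested here. The labels do not tell whether libraries 1 and 2 of a group are separate cultures, and the spread among them could be purely technical. The p-values by clone cover only this spread. In the fit over both clones the spread also holds the difference between the clones. There the 2 libraries of C4K13A count as separate units although they are 1 clone.

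Totals ran from 43190276 to 48442286 counts in the K13A libraries and from 51978974 to 57282373 counts in the parental libraries. HOXB13 had 344, 347 and 352 CPM (counts scaled to the library total with TMM factors) in C4K13A library 1, C4K13A library 2 and C5K13A, against 338 and 448 CPM in the parental libraries. The groups overlapped, and gene counts cannot show the K13A substitution. All 8 markers of luminal prostate epithelium had counts, and their summed level was 4384 to 5096 CPM in the K13A libraries and 4114 to 5845 CPM in the parental libraries. Residual mitochondrial ribosomal RNA, a trace of how completely ribosomal RNA was depleted, was under 200 CPM in C4K13A library 1 and parental library 1 and above it in the other 3 libraries.

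Androgen lowers the transcription of a set of genes as well as raising that of others. ACKR3, once called CXCR7, is an atypical chemokine receptor: it binds CXCL12, recruits arrestins in place of G proteins and takes the chemokine out of the surroundings, whereas CXCR4 is the G protein-coupled receptor through which CXCL12 directs migration. MET is the receptor tyrosine kinase of hepatocyte growth factor. OPRK1 is the kappa opioid receptor, CDH2 is N-cadherin, a cell adhesion protein of mesenchymal and neural cells, and DKK1 is a secreted antagonist of Wnt signalling that binds the coreceptors LRP5 and LRP6.

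RefSeq promoter entries (GRCh38.p14) were found for 5 of the 7 genes: CXCR4, CXCL12, MET, CDH2 and DKK1. ACKR3 and OPRK1 had none. The 250 bases before the start are printed for MET, transcribed at a low level, and DKK1, at or under 3 counts in every library, on the strand of each gene, to show that both starts are rich in CG pairs (capitals). MET is at chr7:116671946-116672195 on the plus strand and DKK1 at chr10:52314031-52314280 on the plus strand.
MET: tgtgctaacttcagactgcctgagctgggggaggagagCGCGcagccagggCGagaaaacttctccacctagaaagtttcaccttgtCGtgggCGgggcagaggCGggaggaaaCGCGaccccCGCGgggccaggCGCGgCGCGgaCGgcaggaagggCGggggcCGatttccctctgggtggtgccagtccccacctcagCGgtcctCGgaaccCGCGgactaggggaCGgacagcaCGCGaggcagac
DKK1: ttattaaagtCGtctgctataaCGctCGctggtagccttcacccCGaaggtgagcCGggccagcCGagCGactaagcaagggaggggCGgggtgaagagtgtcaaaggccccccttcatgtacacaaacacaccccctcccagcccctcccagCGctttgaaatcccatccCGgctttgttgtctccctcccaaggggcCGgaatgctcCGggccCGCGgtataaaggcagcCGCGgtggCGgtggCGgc
The MET window held 24 CG pairs and the DKK1 window 18 (CXCL12 had 31), against a median of 11 over 35116 RefSeq promoter windows of the same length. As many pairs as MET were held by 23.7% of those windows and as many as DKK1 by 36.8%. Both strands were searched for AGAACA, a short steroid hormone response sequence (in 12.4% of windows), CCAATAAA, a sequence that HOXB13 can bind (0.863%), and ACGTG, the core of the hypoxia-response element (18.5%). None of the 3 was in the windows of CXCR4, CXCL12, MET, CDH2 or DKK1. By GENCODE v29 all 250 bases of the CDH2 window and 16 of the CXCR4 window are exonic in that gene. The CXCL12 window (chr10:44385098-44385347, minus strand) lies within the v29 span of its gene, 44370165 to 44386493, outside its exons. None of these windows is thus wholly before the v29 start of its gene. The search covers these letters in this window only.

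ACKR3 was the most highly transcribed of the 7 genes in every library and was lower in each K13A library than in either parental library. The gene (ENSG00000144476) lies on chromosome 2 at 236567787 to 236582358, plus strand, GRCh38 in GENCODE v29. It had 23.6 CPM in C4K13A library 1, 9.20 CPM in C4K13A library 2 and 14.6 CPM in C5K13A, against 119 CPM in parental library 1 and 43.1 CPM in parental library 2. The groups did not overlap, and the highest K13A library lay below the lower parental one. Behind these levels stood 1186, 394 and 622 counts in the K13A libraries and 7077 and 2190 counts in the parental libraries, so counting error was small beside the spread between libraries. That spread was wide: library 1 exceeded library 2 by 2.57 times in C4K13A and by 2.77 times in parental.

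**Figure D1:**
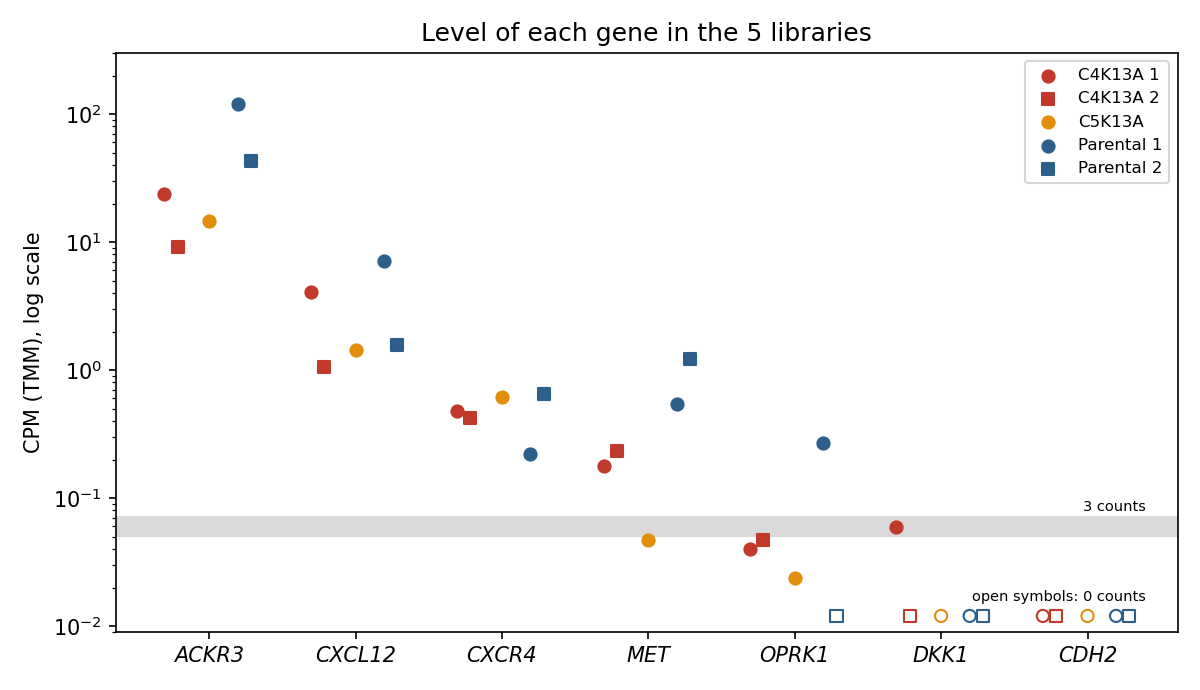
CPM of each of the 7 genes in each library on a log axis, with C4K13A, C5K13A and parental from left to right for each gene, circles for library 1 and squares for library 2. The grey band is the level of 3 counts and open symbols mark 0 counts; ACKR3 lies above the other genes in every library and CDH2 is at 0 throughout.

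Over both clones, the mean of ACKR3 was 15.8 ± 7.30 CPM in K13A (SD, n = 3) and 81.1 ± 53.8 CPM in parental (SD, n = 2). The fitted log2 fold change was -2.36 ± 0.47 (SE); it did not pass the threshold after adjustment over 20649 genes (edgeR quasi-likelihood test, adjusted p = 0.147; unadjusted p = 0.00101). ACKR3 stood at rank 139 of those genes by p. None of the 4 genes tested in this comparison (ACKR3, CXCR4, CXCL12 and MET) was called at an adjusted p under 0.05, where 0.203% of all genes were called. ACKR3 and MET had an unadjusted p under 0.05, as did 11.0% of all genes, and the same 2 genes were lower in every K13A library than in every parental library, as were 14.9% of all genes.

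By clone, and against the same parental libraries, the fold change of ACKR3 was -2.30 ± 0.54 in C4K13A (adjusted p = 0.126). In C5K13A, a single library assumed to vary like the others, it was -2.46 ± 0.72 (adjusted p = 0.535), both from the edgeR fit of 3 groups. Of the 5 genes tested in that fit (OPRK1 in addition, which passed the filter through parental library 1 alone), 0 were called in C4K13A, where 0.699% of all genes were called, 0 in C5K13A, where 0.0484% were, and 0 between the clones, where 0.066% were. At an unadjusted p under 0.05 there were 2 in C4K13A (12.2% of all genes), 2 in C5K13A (6.45%) and 0 between the clones (6.42%). Between the clones themselves, C5K13A against C4K13A, ACKR3 was -0.16 ± 0.64 (adjusted p = 0.999). That SE leaves room for a difference of either sign. Leaving out single libraries changed the call for each clone. The fits that called ACKR3 left 1 library in a group, and they called more genes over the whole table than the fit of all libraries. Only their fold changes are therefore given. In C4K13A against parental, ACKR3 was -3.14 without C4K13A library 1 and -2.85 without parental library 2. In C5K13A against parental it was -2.45 without C4K13A library 1 and -2.46 without C4K13A library 2. Without parental library 2 it was -3.02 in C5K13A. Over both clones, leaving out parental library 1 gave -1.44 (adjusted p = 0.824) and leaving out parental library 2 gave -2.91 (0.0683).

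In C4K13A and in parental the library with less residual ribosomal RNA had more ACKR3. Levels were therefore also set side by side within each side of a split at 200 CPM. The split does not match content: C4K13A library 1 had 63.1 CPM and parental library 1 had 28.0 CPM of it. Above the split, C4K13A library 2 had 364 CPM, C5K13A had 669 CPM and parental library 2 had 1760 CPM. Among libraries under 200 CPM of mitochondrial ribosomal RNA, ACKR3 had 23.6 CPM in C4K13A library 1 and 119 CPM in parental library 1. This is 5.04 times lower in the clone. Among the libraries above it, ACKR3 averaged 11.9 CPM in C4K13A library 2 and C5K13A, and had 43.1 CPM in parental library 2, 3.61 times lower in the clones. With this split as a covariate, chosen after the data were seen, ACKR3 was called over both clones (-2.06, edgeR adjusted p = 0.0235) and in C4K13A (-2.28, 7.99e-05). In C5K13A, a single library, it was -1.58. The covariate fits called 71 of 20649 genes over both clones, against 42 without it. In C4K13A they called 778 of 22743, against 159. Among C4K13A and parental libraries the split is the same as the library number. It is thus no separate adjustment from a block of same-numbered libraries, whose pairing is not established. DESeq2 called ACKR3 over both clones (-2.35, adjusted p = 0.0347), where it called 555 genes, and limma-voom did not (-2.27, 0.168). With the C4K13A libraries summed, so that each clone counted once, ACKR3 was -2.36 and was not called (edgeR adjusted p = 0.227). In C4K13A alone DESeq2 did not call it (-2.29, adjusted p = 0.194), nor in C5K13A (-2.46).

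Markers of other cell types of the prostate were low. The basal, endothelial and fibroblast sums were lower in each K13A library than in either parental one, but single markers went both ways. All 5 basal epithelial markers had counts somewhere, with a summed level of 0.887 to 2.73 CPM in the K13A libraries and 3.79 to 9.60 CPM in the parental libraries. Most of it was ITGB4, the integrin beta 4 gene, which is also on the list of MET partners, while KRT5 had no count in either parental library. All 6 endothelial markers had counts, summing to 3.27 to 5.16 CPM in the K13A libraries and 6.29 to 6.30 CPM in the parental libraries, mostly VWF. CDH5, the endothelial cadherin, was at 0 in each K13A library and had only 1 and 3 counts in the parental libraries. CLDN5, on the same list, averaged 0.849 CPM in K13A and 0.611 CPM in parental. Of 8 fibroblast markers 7 had counts and LUM had none, with sums of 6.86 to 9.11 CPM in the K13A libraries and 9.26 to 9.95 CPM in the parental libraries. Leukocyte markers (6 of 7 with counts, CD3E at 0) summed to 0.350 to 0.558 CPM in the K13A libraries and 0.452 to 0.539 CPM in the parental libraries. All libraries are of a cultured line and clones of it, so these sums are low transcript levels and give no share of cell types. Any link between them and the values of ACKR3 and CXCL12 was not tested. In bulk RNA, fewer cells with a transcript and less of it per cell cannot be told apart.

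CXCL12, the chemokine that both receptors bind, differed more between libraries 1 and 2 of a group than between the group means. The gene (ENSG00000107562) lies on chromosome 10 at 44370165 to 44386493, minus strand. It had 4.07 CPM in C4K13A library 1, 1.05 CPM in C4K13A library 2 and 1.44 CPM in C5K13A, against 7.16 CPM in parental library 1 and 1.57 CPM in parental library 2. The groups overlapped, since C4K13A library 1 lay above parental library 2. The means were 2.18 ± 1.64 CPM in K13A (SD, n = 3) and 4.37 ± 3.95 CPM in parental (SD, n = 2), with a fold change of -0.99 ± 0.71 (edgeR adjusted p = 0.651). Without parental library 1 it turned to 0.48 (adjusted p = 0.979) and without parental library 2 it was -1.70 (0.248). By clone it was -0.76 ± 0.76 in C4K13A (edgeR adjusted p = 0.746), or 0.71 without parental library 1, and -1.60 ± 1.01 in C5K13A (adjusted p = 0.834), or -0.13 without parental library 1. Library 1 exceeded library 2 by 3.87 times in C4K13A and by 4.55 times in parental, the same direction as for ACKR3. Among libraries of low residual ribosomal RNA CXCL12 had 4.07 CPM in the clone and 7.16 CPM in parental; among the others it had 1.24 CPM in the clones and 1.57 CPM in parental.

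CXCR4, the signalling receptor of CXCL12, was transcribed at a low level in every library. The gene (ENSG00000121966) lies on chromosome 2 at 136114349 to 136118165, minus strand. It had 0.479 CPM (24 counts) in C4K13A library 1, 0.420 CPM (18 counts) in C4K13A library 2 and 0.612 CPM (26 counts) in C5K13A. The parental libraries had 0.219 CPM (13 counts) and 0.649 CPM (33 counts). All 3 K13A libraries lay between the 2 parental ones. The fold change of 0.22 ± 0.60 (edgeR adjusted p = 0.923) turned to -0.36 without parental library 1 and was 1.19 without parental library 2 (adjusted p = 0.977 and 0.437). The pooled counts gave a ratio of K13A to parental of 1.20, with an exact 95% interval of 0.816 to 1.79 that covers counting error only.

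Per length, the receptors stood far apart, and the distance differed between libraries. Per kilobase of merged exon, ACKR3 had 10.5, 4.07 and 6.49 CPM in C4K13A library 1, C4K13A library 2 and C5K13A, against 52.8 and 19.1 CPM in the parental libraries. On the same scale CXCR4 had 0.215, 0.189 and 0.275 CPM in the K13A libraries, against 0.0984 and 0.292 CPM in the parental libraries. The level of ACKR3 was thus 48.7, 21.6 and 23.6 times that of CXCR4 in the K13A libraries, against 536 and 65.4 times in the parental libraries. Each K13A library had a lower ratio than either parental one, but ACKR3 by itself already separated the groups. The ratios came closest in C4K13A library 1 and parental library 2, where CXCR4 had 24 and 33 counts. How many gene pairs are ordered in this way was not counted. CXCR4 rests on 13 counts in parental library 1, where the ratio was highest. ACKR3 was 15.6, 23.6 and 27.4 times CXCL12 per kilobase in the K13A libraries, against 44.8 and 73.7 times in the parental libraries.

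MET was transcribed at a low level in all libraries and was lower in each K13A library than in either parental one. The gene (ENSG00000105976) lies on chromosome 7 at 116672390 to 116798386, plus strand. It had 0.179 CPM (9 counts) in C4K13A library 1, 0.233 CPM (10 counts) in C4K13A library 2 and 0.0471 CPM (2 counts) in C5K13A. The parental libraries had 0.539 CPM (32 counts) and 1.22 CPM (62 counts). The groups did not overlap, and here parental library 2 was the higher of the pair, unlike for ACKR3 and CXCL12. The means were 0.153 ± 0.0959 CPM in K13A (SD, n = 3) and 0.879 ± 0.481 CPM in parental (SD, n = 2). The fold change was -2.49 ± 0.70 (edgeR adjusted p = 0.265; unadjusted p = 0.00751), and from pooled counts MET was 5.50 times lower in K13A, with an exact 95% interval of 3.40 to 9.30 for counting error alone.

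In C4K13A the fold change of MET was -2.08 ± 0.69 (edgeR adjusted p = 0.276). C5K13A rests on 2 counts, which put MET 18.1 times lower than parental with a counting interval of 4.87 to 152 (edgeR adjusted p = 0.475). Between the clones, C5K13A was 4.34 times lower than C4K13A from counts, with an interval of 1.05 to 38.4, and the difference was not called (edgeR adjusted p = 0.845). Over both clones MET was -2.96 when parental library 1 was left out and -1.79 when parental library 2 was. Among libraries of low residual ribosomal RNA MET was 3.0 times lower in the clone, and among the others 8.69 times lower in the clones.

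**Figure D2:**
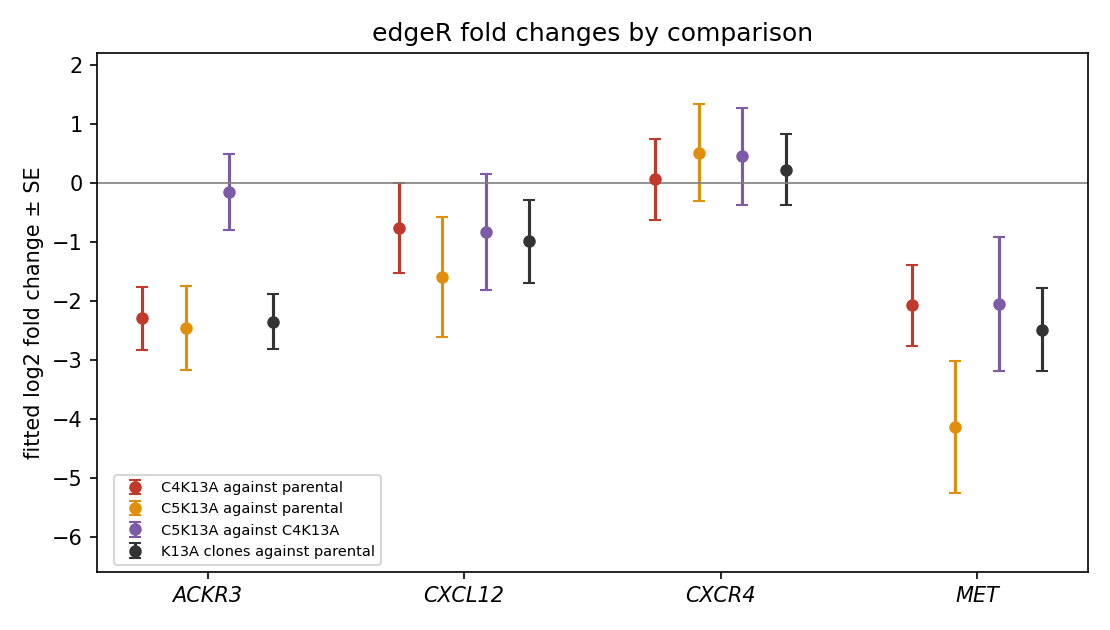
Fitted log2 fold changes with standard errors from edgeR for ACKR3, CXCL12, CXCR4 and MET in each of 4 comparisons; both clones over parental came from a 2-group fit and the rest from a 3-group fit. ACKR3 lies near -2.30 in C4K13A and -2.46 in C5K13A, and none of the points passed the threshold.

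OPRK1 had few counts, most of them in a single library. The gene (ENSG00000082556) lies on chromosome 8 at 53225716 to 53251697, minus strand. It had 2 counts in each C4K13A library and 1 in C5K13A, against 16 in parental library 1 and 0 in parental library 2. The K13A libraries thus lay between the 2 parental libraries, and a count of 0 in parental library 2 allows up to 0.0590 CPM. OPRK1 did not pass the filter on low counts in the comparison of both clones with parental. It passed in the 3-group fit through parental library 1 alone, the library in which it was high, so its fitted values are a description and not a test. In C4K13A edgeR gave -1.61 ± 1.77 and limma-voom -0.11. The single count in C5K13A put it 6.16 times lower than parental, with a counting interval of 0.958 to 258.

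DKK1 and CDH2 were at or under the floor of 3 counts in every library. DKK1 (ENSG00000107984), on chromosome 10 at 52314296 to 52318042, plus strand, had 3 counts in C4K13A library 1 and 0 in C4K13A library 2, C5K13A and both parental libraries. PRKG1-AS1, a gene on the opposite strand that shares 212 exonic bases with DKK1, had 2 counts in the same C4K13A library and 0 elsewhere. The strand setting of the counting is not given in the sources used here, so reads of the pair cannot be told apart. CDH2 (ENSG00000170558), on chromosome 18 at 27950966 to 28177446, minus strand, had 0 counts in each of the 5 libraries. That allows up to 0.0598, 0.0700 and 0.0706 CPM in C4K13A library 1, C4K13A library 2 and C5K13A, and up to 0.0505 and 0.0590 CPM in the parental libraries. A difference in either gene was not detectable at this depth.

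Ordered by level per kilobase over all libraries, ACKR3 came first (18.6 CPM per kilobase), followed by CXCL12 (0.503), CXCR4 (0.214), MET (0.0630), OPRK1 (0.0132) and DKK1 (0.00542). ACKR3 exceeded each other gene in each of the 5 libraries. CXCL12 and CXCR4 overlapped across libraries, and in C4K13A library 2, C5K13A and parental library 2 CXCR4 was the higher of the pair per kilobase. MET lay below CXCR4 in each library. OPRK1 and DKK1 were at or under 3 counts in every library apart from the 16 counts of OPRK1 in parental library 1.

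**Figure D3:**
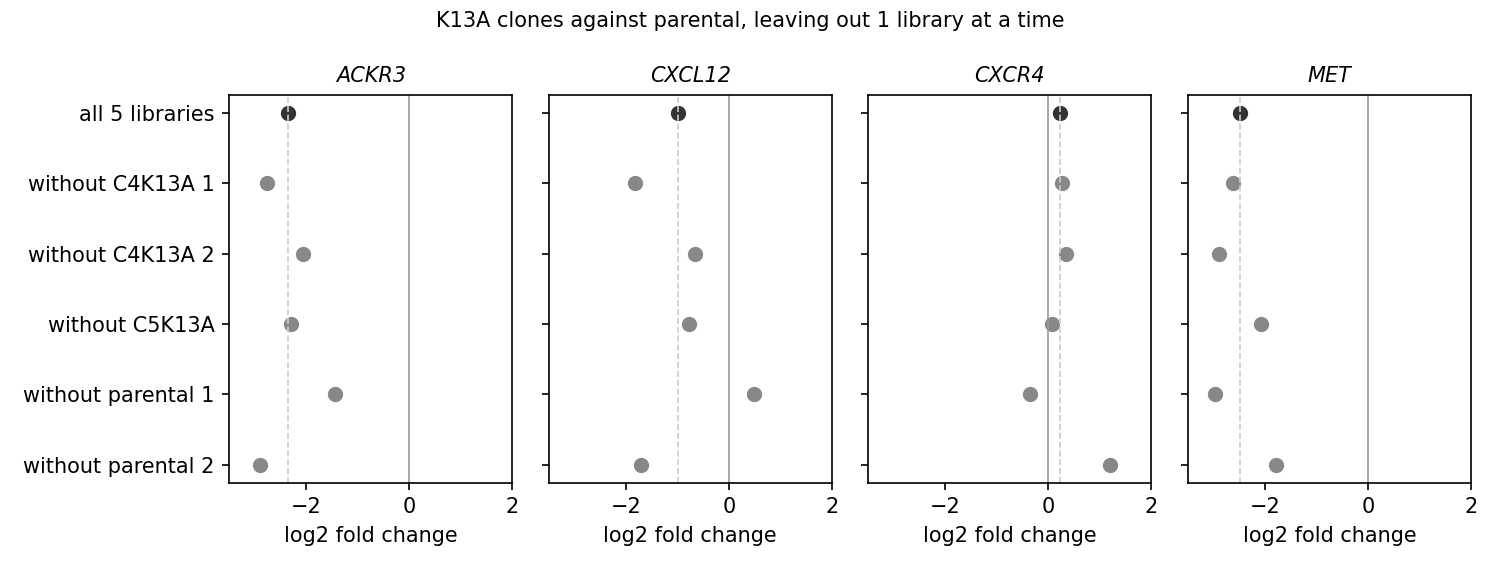
Fitted log2 fold change of K13A over parental (edgeR, 2 groups) with all 5 libraries and with each library left out, for ACKR3, CXCL12, CXCR4 and MET; the dashed line is the value with all libraries. ACKR3 and MET stay below 0 in each case, while CXCL12 and CXCR4 change sign without parental library 1.

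The profiles most like that of ACKR3 over the 5 libraries, by the root mean square difference of centred log2(CPM + 0.5) values among 11971 protein-coding genes, were those of IRS2 and SYT17. IRS2, an insulin receptor substrate, differed by 0.21 on the log2 scale (Pearson r = 0.986) and had 5.76, 3.04 and 4.87 CPM in C4K13A library 1, C4K13A library 2 and C5K13A, against 39.0 and 16.7 CPM in the parental libraries. SYT17, a synaptotagmin, differed by 0.26 (r = 0.979), with 1.5, 0.537 and 0.518 CPM in the K13A libraries, against 8.32 and 3.91 CPM in the parental libraries. Both shared the order of ACKR3 in which parental library 1 was highest. For CXCL12 the nearest were IL1RAPL1 (0.17, r = 0.994) and PABPC1L (0.24, r = 0.964). For MET they were GUCY1B1, a subunit of soluble guanylate cyclase (0.09, r = 0.994), and WDR72 (0.09, r = 0.992). For CXCR4 they were FAM89A (0.02, r = 0.997) and NCBP2AS2 (0.03, r = 0.999), and for OPRK1, which varied little on this scale, DYNC2LI1 (0.02, r = 0.999) and TGIF1 (0.03, r = 0.995). The 0.5 CPM added to each value is near or above most levels of MET and CXCR4, which flattens their profiles and makes these differences small. MET ran from 0.0471 to 1.22 CPM, but GUCY1B1 from 10.5 to 28.4 CPM. CXCR4 ran from 0.219 to 0.649 CPM, but FAM89A from 3.84 to 6.43 CPM. These are descriptions over 5 libraries that share their depth and scaling.

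None of the tested partners of the chemokine receptors was called. Of 17 listed ligands, arrestins, kinases and accessory proteins, 12 were tested over both clones and 0 were called (edgeR; 2 at an unadjusted p under 0.05), with 8 fold changes above 0, 4 below, and a median of 0.08, against -0.00474 over all tested genes. GRK2, a receptor kinase, had 275 ± 30.1 CPM in K13A (SD, n = 3) and 257 ± 76.7 CPM in parental (SD, n = 2). HMGB1, which forms a complex with CXCL12, had 469 ± 13.8 CPM in K13A and 384 ± 145 CPM in parental. CXCL11, the other chemokine ligand of ACKR3, had 0.0467 CPM in C4K13A library 2 and 0 in the other libraries.

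Of 20 partners and regulators of MET, 17 were tested over both clones and 0 were called (edgeR; 2 at an unadjusted p under 0.05), 10 of them below 0, with a median of -0.13 that was 0.0034 without parental library 1 and -0.05 without C4K13A library 1. HGF, the ligand, had 0.0399 CPM in C4K13A library 1 and 0 in the other 4 libraries. ST14, the protease matriptase that can activate the HGF precursor, had 345 ± 36.3 CPM in K13A and 314 ± 14.2 CPM in parental, and PTPN11, a phosphatase in MET signalling, had 238 ± 12.4 CPM in K13A and 211 ± 49.8 CPM in parental. Both differed by less than the spread within a group.

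Most opioid ligand and receptor genes did not pass the filter on low counts. Of 11 listed genes 3 were tested over both clones and 0 called (edgeR; 1 at an unadjusted p under 0.05), with a median of 0.18. PDYN, which encodes the dynorphin ligands of OPRK1, had 0 counts in all 5 libraries, as did PENK, PNOC and POMC. CPE, a peptide-processing carboxypeptidase, had 48.8 ± 5.0 CPM in K13A and 43.0 ± 3.20 CPM in parental. RGS4, which shortens G protein signalling, had 7.72, 23.2 and 11.4 CPM in C4K13A library 1, C4K13A library 2 and C5K13A, against 1.03 and 5.23 CPM in the parental libraries, with a fold change of 2.18 ± 0.70 (edgeR adjusted p = 0.316). It was higher in each K13A library than in either parental one, as were 13.6% of all genes.

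The cadherin and catenin genes with the highest levels were epithelial ones. Of 19 genes 13 were tested over both clones and 0 called (edgeR; 2 at an unadjusted p under 0.05), with a median of 0.02. CDH1, epithelial E-cadherin, had 447, 584 and 399 CPM in C4K13A library 1, C4K13A library 2 and C5K13A, against 418 and 326 CPM in the parental libraries, and the groups overlapped. JUP, plakoglobin, had 597 ± 126 CPM in K13A and 662 ± 11.1 CPM in parental.

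Of 24 Wnt antagonists, receptors and feedback targets, 16 were tested over both clones and 0 called (edgeR; 3 at an unadjusted p under 0.05), 9 below 0 and 7 above, with a median of -0.12. DKK2 and DKK4 had 0 counts in every library. The coreceptor gene LRP5, whose protein DKK1 binds, had 168 ± 11.2 CPM in K13A and 156 ± 6.35 CPM in parental. CKAP4, another DKK1 receptor, had 170 ± 31.0 CPM in K13A and 130 ± 6.78 CPM in parental.

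**Figure D4:**
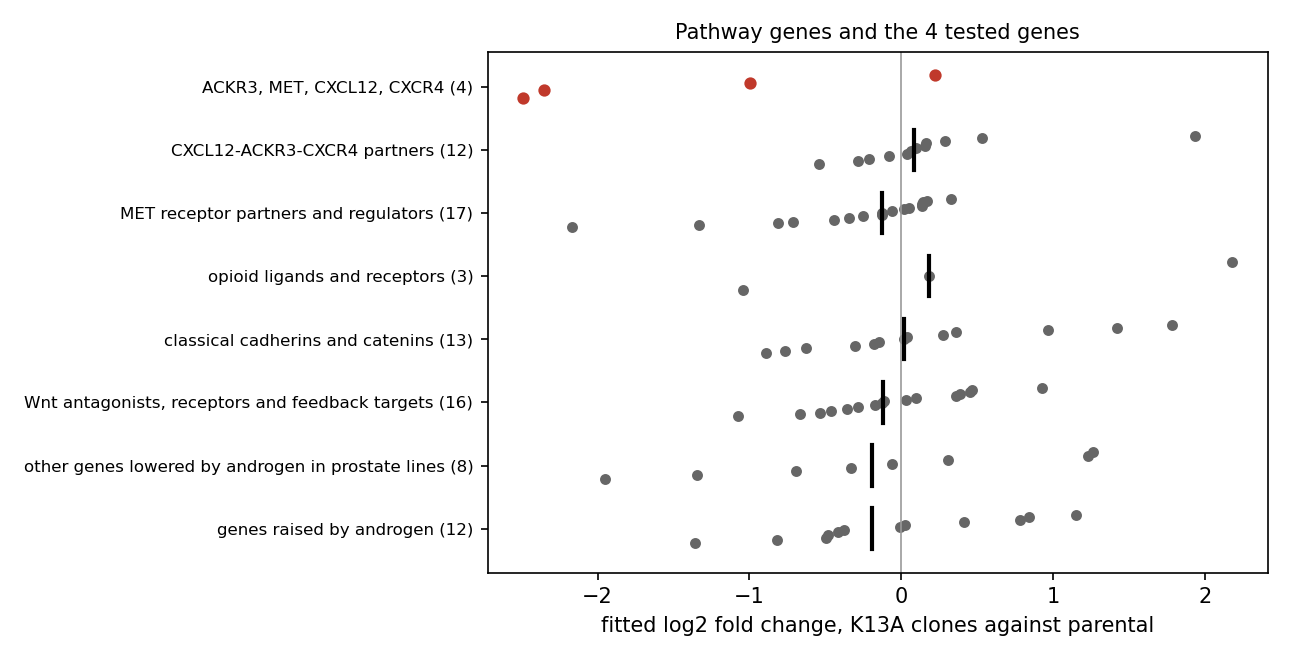
Fitted log2 fold change of K13A over parental (edgeR, 2 groups) for the 4 tested genes in red, above 7 lists of pathway genes in grey, with the number tested in brackets and each list's median as a black bar. The medians of the lists lie between -0.20 and 0.18, and none of the points passed the threshold.

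Among androgen-regulated genes outside the 7, 1 lowered by androgen and 1 raised by it were called, both in C4K13A. Of 8 other genes lowered by androgen, 0 were called over both clones (edgeR; 1 at an unadjusted p under 0.05), 5 of them below 0 with a median of -0.20. In C4K13A 7 of the 8 were below 0, with a median of -1.18 against -0.01 over all genes, and 1 was called, where 0.699% of all genes were. At an unadjusted p under 0.05 there were 5 of the 8 in C4K13A, against 12.2% of all genes. The list was chosen with earlier results of these data known, so these values describe it and do not test it. The called gene was UGT2B17, an enzyme that glucuronidates androgens, with 0.0399 and 0.0467 CPM in the C4K13A libraries and 6.15 CPM in C5K13A, against 0.724 and 1.00 CPM in the parental libraries (-4.25 in C4K13A, edgeR adjusted p = 0.0197). Its counts are uncertain because UGT2B15, also among the 8, is a near-identical copy. UGT2B15 had 0.399 and 0.163 CPM in the C4K13A libraries and 6.10 CPM in C5K13A, against 1.31 and 2.26 CPM in the parental libraries. UGT2B15 and UGT2B17 may therefore not count as separate genes. In C5K13A the median of the 8 genes was -0.04, against -0.03 over all genes, and 0 were called (edgeR; 3 at an unadjusted p under 0.05, against 6.45% of all genes).

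Of 12 genes raised by androgen, 0 were called over both clones (edgeR; 3 at an unadjusted p under 0.05, median -0.19), and 1 was called, higher in C4K13A (2 at an unadjusted p under 0.05, against 12.2% of all genes, median -0.01), where 0.699% of all genes were called. In C5K13A 0 were called, where 0.0484% of all genes were, and 8 had an unadjusted p under 0.05, against 6.45% of all genes. Their median was -0.72, with 9 of the 12 below 0. C5K13A is a single library above the split at 200 CPM of residual ribosomal RNA, whereas parental library 1 lies under it. Any part of that split in these values was not tested. This list too was chosen with earlier results of these data known. The called gene was FKBP5, a chaperone of steroid receptors, with 531 and 453 CPM in the C4K13A libraries and 271 CPM in C5K13A, against 157 and 219 CPM in the parental libraries (1.39 in C4K13A, edgeR adjusted p = 0.0421). FKBP5 lost its call without C4K13A library 1 (edgeR adjusted p = 0.0836) and without C5K13A (0.0526), and UGT2B17 without C5K13A (0.0610) and with limma-voom (0.211). Between the clones, C5K13A against C4K13A, the log2 fold change of UGT2B17 was 7.08 ± 0.58 (edgeR adjusted p = 0.0247; limma-voom 0.166), with 261 counts in C5K13A and 4 in C4K13A in all.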

How the data were processed

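Per the labels' protocols, total RNA was depleted of ribosomal RNA (RiboErase) and read on an Illumina HiSeq. The deposited values are raw counts per gene, and the submitters' processing notes name bcl2fastq, STAR 2.5, Subread and featureCounts 1.4.6-p5. For genome build, annotation, strand setting and multi-mapped reads, the choice is not given in the sources used here. Names, positions and merged exon lengths came from GENCODE v29 (GRCh38), which holds 55297 of the 58812 gene IDs. CPM used TMM factors.

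Counts were tested with edgeR 4.0.16 in R 4.3.3 (filterByExpr, quasi-likelihood test, Benjamini-Hochberg adjustment over all tested genes, threshold 0.05). K13A against parental was a 2-group fit, with 20649 genes tested, and comparisons by clone came from a 3-group fit, with 22743. Alternatives were DESeq2 1.42.0, no filter, upper-quartile or RLE factors, limma-voom (limma 3.58.1), each library left out, the 3-group fit for both clones, C4K13A libraries summed, and a replicate block. A covariate for residual mitochondrial ribosomal RNA (split at 200 CPM) was chosen after the data were seen. The members and lists were chosen with earlier results of these data known. All 7 genes are named; from each list, the genes called in any comparison and otherwise the 2 with the highest mean CPM, with ligands at or near 0 added after their values were seen. Intervals from counts are exact at 95% and cover counting error only, as does the floor of 3 counts.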

Additional observations from a re-analysis of the deposited data

Results flagged for a closer look

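UGT2B17 differed between the clones by the test of that difference: its log2 fold change in C5K13A against C4K13A was 7.08 (edgeR adjusted p = 0.0247, 1 library against 2). Its counts may be shared with the near-identical UGT2B15, which had 20 and 7 counts in the C4K13A libraries and 259 in C5K13A. The difference is thus not particular to UGT2B17.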

How the results depend on the processing

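Counts of called genes depended on the fit. For both clones against parental (42 genes) they were 1167 without a filter, 555 with DESeq2, 11 with limma-voom, 105 in the 3-group fit, 11 with C4K13A libraries summed and 71 with the ribosomal RNA covariate. The replicate block could take only C4K13A and parental, so it is no fit of both clones: it called 885 genes, against 130 with C5K13A left out and no block. For C4K13A (159) they were 1346 without a filter, 745 with DESeq2, 86 with limma-voom, 885 with the block and 778 with the covariate. For C5K13A (11) they were 578 without a filter, 230 with DESeq2, 0 with limma-voom (1133 at an unadjusted p under 0.05) and 105 with the covariate. Between the clones (15) they were 7 with upper-quartile factors, 423 without a filter, 179 with DESeq2, 0 with limma-voom (1104 at an unadjusted p under 0.05) and 92 with the covariate. Leaving out 1 library gave 0 to 130 genes for both clones (0 without parental library 1, 1194 at an unadjusted p under 0.05), 130 to 1671 for C4K13A, 42 to 670 for C5K13A and 51 to 156 between the clones. The cause of these differences was not tested.

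Of the 7 genes, over both clones 2 were called without a filter (ACKR3 and MET, adjusted p = 0.00704 for MET), 1 with DESeq2 and 1 with the covariate. In C4K13A 1 was called without a filter, with the block and with the covariate. In C5K13A 2 were called without a filter and 1 with the covariate. Leaving out 1 library gave 0 to 1 called genes in each clone. ACKR3 and MET stayed below 0 against parental under every alternative run, ACKR3 between -3.14 and -1.39 and MET between -4.61 and -1.38. Leaving out 1 library, CXCL12 ran between -1.82 and 0.48 for both clones, between -2.05 and 0.71 in C4K13A and between -2.31 and -0.13 in C5K13A, where the covariate gave -0.18. CXCR4 ran between -0.36 and 1.19 for both clones, -0.53 and 1.03 in C4K13A, and -0.081 (without parental library 1) and 1.48 in C5K13A. Between the clones ACKR3 ran between -0.69 and 0.68 and CXCL12 between -1.50 and 0.46. With the covariate ACKR3 (0.71), CXCL12 (0.52) and OPRK1 (0.47) changed sign between the clones.

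With the replicate block, on C4K13A and parental libraries 1 and 2, ACKR3 was -2.28 (edgeR adjusted p = 1.99e-05) and 885 genes were called. Deviations of same-numbered libraries correlated at r = 0.261 over 20649 genes, with 2 pairs, so the numbers do not establish a pairing. The comparisons of C5K13A could not be run without its single library. List medians over both clones also moved when 1 library was left out: partners of the chemokine receptors ran between -0.04 and 0.10, MET partners between -0.16 and 0.0034, cadherins and catenins between -0.14 and 0.08, and other genes lowered by androgen between -1.18 and -0.12. The median of the opioid genes was -0.44 without a filter. Depth limits OPRK1, DKK1 and CDH2 above all.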
